A study of Homo sapiens with 12 samples.

Results

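The oxidative phosphorylation subunit genes encode the proteins of the 4 respiratory chain complexes and of ATP synthase in the inner mitochondrial membrane. They were taken by symbol from the platform annotation of the array: symbols that start with NDUFA, NDUFB, NDUFC, NDUFS, NDUFV, UQCR, COX4, COX5, COX6, COX7, COX8 or ATP5, together with SDHA, SDHB, SDHC, SDHD and CYC1 where annotated, without the NDUFAF assembly factors. Of 78 matching symbols, 1 was a pseudogene, ATP5F1EP2, which left 77 genes of the 18665 genes with a named probe. They comprised 33 genes of complex I, 3 of complex II, 8 of complex III, 16 of complex IV and 17 of complex V, the last including the ATP synthase inhibitor ATP5IF1. A probe with a detection p-value under 0.01 on at least 3 of the 12 arrays was required for testing, and 67 of the 77 genes had one, among 9484 tested genes in all.

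RNA came from SW48, an established human colorectal cancer line with microsatellite instability, and was hybridised to 12 Illumina HumanWG-6 v3 arrays on 2 chips. The combined group (3 arrays) received 5'-Aza-cytidine at 1 µM for 5 days and Trichostatin A at 0.5 µM for 2 days. The azacytidine group (3 arrays) received 5'-Aza-cytidine alone at 1 µM for 5 days, and the TSA group (3 arrays) received Trichostatin A alone at 0.5 µM for 2 days. The control group (3 arrays) was not treated. All groups shared the cell line, so the data describe 1 line only. Azacytidine is a cytidine analog that is incorporated into nucleic acids and blocks DNA methyltransferases, and TSA inhibits histone deacetylases. The labels do not say that the replicates were separate cultures, so the p-values rest on array-to-array spread that may be technical. Treatment length differed with the agent, and the 2 cannot be told apart.

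Complex I takes electrons from NADH, complex II takes them from succinate, and both pass them through ubiquinone to complex III, cytochrome c and complex IV, where oxygen is reduced. Complexes I, III and IV pump protons, and complex V uses the gradient to make ATP. Most subunits are encoded in the nucleus, and a few catalytic subunits are encoded in mitochondrial DNA, for which 0 of 13 genes had a named probe here. Several complex IV subunits have a general form and a form largely restricted to a tissue: COX7B2 and COX6B2 are known as testis forms of COX7B and COX6B1, and COX6A2 and COX7A1 as heart and muscle forms.

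The promoters of the 2 testis-form genes and of their general partners are shown because the testis forms were above background in some groups only and because one of the agents acts on CpG methylation. Each sequence runs from 250 bases before to 50 bases after the RefSeq gene start, 5' to 3' on the gene's own strand, from the RefSeq table for GRCh38.p14, and capitals mark CG dinucleotides. The COX7B2 window lies at chr4:46909196-46909495 on the minus strand, COX7B at chrX:77899218-77899517 on the plus strand, COX6B2 at chr19:55354670-55354969 on the minus strand and COX6B1 at chr19:35648073-35648372 on the plus strand.
COX7B2: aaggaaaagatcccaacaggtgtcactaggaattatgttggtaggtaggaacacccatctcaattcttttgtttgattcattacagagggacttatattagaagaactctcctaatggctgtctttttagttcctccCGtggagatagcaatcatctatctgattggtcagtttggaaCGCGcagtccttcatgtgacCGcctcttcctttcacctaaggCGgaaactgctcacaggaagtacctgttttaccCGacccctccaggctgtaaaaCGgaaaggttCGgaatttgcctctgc
COX7B: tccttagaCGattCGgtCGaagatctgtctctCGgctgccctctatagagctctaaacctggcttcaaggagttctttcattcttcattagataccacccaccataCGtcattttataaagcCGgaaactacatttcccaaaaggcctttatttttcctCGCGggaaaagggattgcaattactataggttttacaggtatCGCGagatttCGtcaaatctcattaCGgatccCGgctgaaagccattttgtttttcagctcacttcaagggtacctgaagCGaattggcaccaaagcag
COX6B2: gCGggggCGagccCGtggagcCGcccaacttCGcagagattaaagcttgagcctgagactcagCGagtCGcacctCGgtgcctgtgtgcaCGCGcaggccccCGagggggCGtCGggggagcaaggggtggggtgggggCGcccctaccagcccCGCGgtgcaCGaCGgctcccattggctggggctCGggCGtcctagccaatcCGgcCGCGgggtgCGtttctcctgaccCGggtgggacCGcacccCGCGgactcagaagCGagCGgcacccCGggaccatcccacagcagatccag
COX6B1: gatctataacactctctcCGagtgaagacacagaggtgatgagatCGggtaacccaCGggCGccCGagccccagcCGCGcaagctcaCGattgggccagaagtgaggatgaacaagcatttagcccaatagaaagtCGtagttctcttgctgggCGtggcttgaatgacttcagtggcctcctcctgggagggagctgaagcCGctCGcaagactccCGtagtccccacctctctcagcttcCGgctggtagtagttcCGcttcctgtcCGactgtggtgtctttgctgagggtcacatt
The COX7B2 window holds 8 CG dinucleotides, with an observed to expected ratio of 0.52, and the COX7B window holds 14. The COX6B2 window holds 31 and the COX6B1 window 16. Methylation of these windows was not measured on the arrays.

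A promoter window was listed for 65 of the 77 subunit genes and for 58 of the 67 tested ones. The tested subunit promoters held a median of 22.0 CG dinucleotides, between 0 in COX7A2 and 42 in COX4I1, and the 7831 promoters of all tested genes held a median of 26. The core letters of the NRF1 motif, GCATGCGC on either strand, were present in 15.5% of the tested subunit promoters, 5.59% of the promoters of all tested genes and 3.27% of all 27305 listed promoters. The YY1 core AAGATGGC was present in 15.5%, 5.59% and 3.03% of the same 3 sets, and the ETS core CCGGAAG in 29.3%, 19.6% and 10.7%. NRF1, YY1 and ETS-family factors are known activators of nuclear respiratory genes. The ETS core ends in the AAG with which the YY1 core begins, so matches of these 2 can overlap, and a match describes the sequence only.

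The arrays were of similar quality by the measures in the files. Between 11742 and 13647 probes and between 64 and 68 of the 77 subunit genes were above background per array, and the median log2 intensity of the tested subunit genes lay between 11.66 and 11.84. Of 12 intestinal epithelial markers, 7 (EPCAM, CDH1, KRT8, KRT18, KRT19, CDX2 and CDH17) were detected on all 12 arrays, and KRT20, VIL1, LGALS4 and GPA33 on none. Of these 7, CDX2 was higher and 4 were lower in the combined than in the control arrays (median log2 change -0.39), and CDX2 was higher and 5 were lower in the azacytidine than in the control arrays (median -0.61). CDH1 was 1 of the 5 and had a log2 change of -0.69 after azacytidine. Of 6 muscle markers, ACTA1 was detected on 3 combined and 3 azacytidine arrays, and the other 5 on none. Of 7 fibroblast markers, COL1A1 and PDGFRB were each detected on 1 combined array. Of 5 leukocyte markers, CD68 was detected on all arrays and CD14 on the combined and azacytidine arrays. Of 3 endothelial markers, VWF was detected on the combined and azacytidine arrays and PECAM1 on 1 azacytidine array. VWF, CD14 and ACTA1 were each called higher in both groups against control, and they passed the detection filter only through these groups. CD68 was called higher in the combined arrays against control and was not called in the azacytidine arrays. The part of these marker changes in the results below was not tested.

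In all, 10 subunit genes had no probe that passed the detection filter. ATP5MK, COX4I2, COX6A2, COX7A1, NDUFB1, NDUFB4, NDUFC2, NDUFS1 and NDUFS6 were detected on 0 arrays, which says only that these probes gave no signal above background. NDUFS1 is the largest core subunit of complex I. COX8C, a testis form of COX8A, was detected on 2 combined arrays and on 0 arrays of the other groups, and it was not tested.

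**Figure D1:**
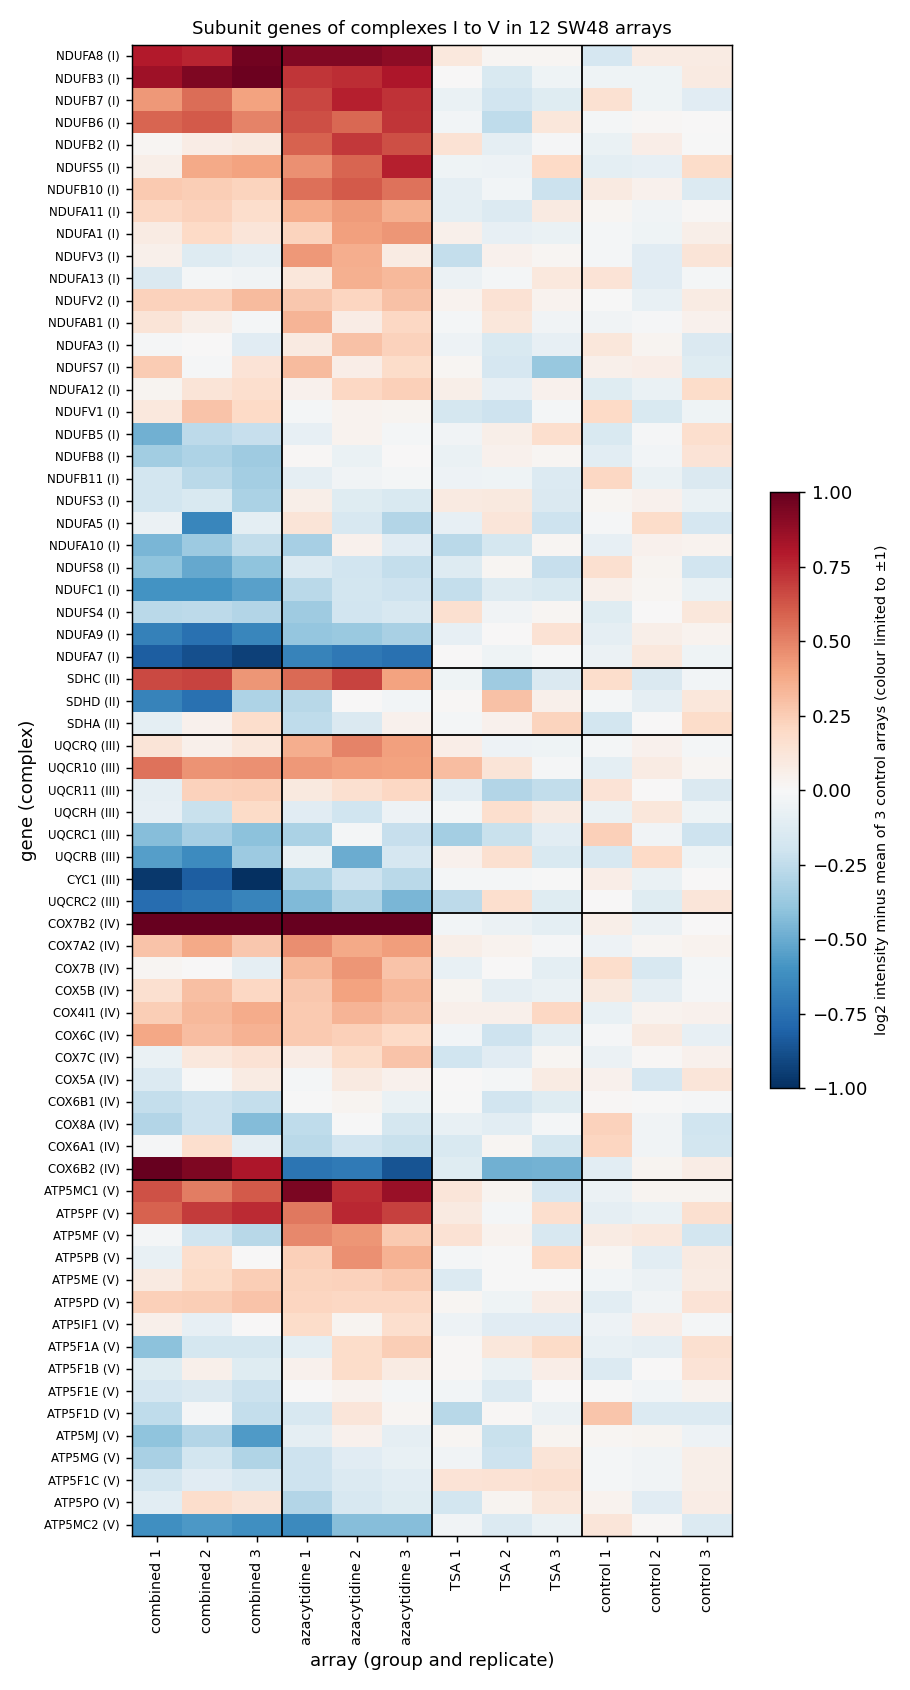
Log2 intensity of the 67 tested subunit genes (rows, grouped by complex and sorted by the azacytidine change) on 12 arrays (columns, by group), relative to the mean of the 3 control arrays; colours stop at ±1. Most rows differ from control by less than 1 log2 unit, COX7B2 is above that limit on all 6 arrays with azacytidine, and COX6B2 is high on the combined arrays alone.

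COX7B2 was above background with azacytidine, alone or combined with TSA, and below it in the other groups. Its log2 intensity was 7.89, 7.89 and 7.70 on the combined arrays, 7.62, 7.75 and 7.80 on the azacytidine arrays, 4.76, 4.73 and 4.69 on the TSA arrays and 4.85, 4.73 and 4.79 on the control arrays. The 6 arrays with azacytidine all lay above the 6 without it, and the gene was detected on all 6 arrays with azacytidine and on none of the others. Where a probe is not above background in a group, only a bound can be given: the mean of the bright group over the higher of that probe's own signal and the lowest detected signal on each dim array. By this bound COX7B2 was at least 2.23-fold higher in the combined than in the control arrays. It was at least 2.07-fold higher in the azacytidine than in the control arrays and at least 2.52-fold higher in the combined than in the TSA arrays. The limma adjusted p-values of the fitted differences, not of these bounds, were 1.82e-12, 3.55e-12 and 1.42e-12 in that order. The probe passed the detection filter only through the arrays with azacytidine, so these p-values are no independent support that it was higher there. In RNA from whole cultures, a change in the number of cells that express a gene and a change in RNA per cell cannot be told apart. All adjusted p-values here come from limma's moderated test with Benjamini-Hochberg adjustment over the 9484 genes, and a gene was called at an adjusted p under 0.05. Its level in the combined arrays (7.83 ± 0.108, SD, n = 3) and the azacytidine arrays (7.72 ± 0.091, SD, n = 3) differed by 0.11 log2 units, which did not pass the test (limma adjusted p = 0.314). The detection on all arrays with azacytidine held on both chips.

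COX7B, the general form, gave 9.52, 9.50 and 9.41 on the combined arrays, 9.82, 9.94 and 9.78 on the azacytidine arrays, 9.42, 9.50 and 9.40 on the TSA arrays and 9.67, 9.34 and 9.48 on the control arrays. It was 1.27-fold higher in the azacytidine than in the control arrays (log2 change 0.35, SE 0.09, limma adjusted p = 0.00442). The combined arrays did not differ from the control arrays by the test (log2 change -0.02, SE 0.09, limma adjusted p = 0.836).

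COX6B2 was above background on the 3 combined arrays and on no other array. Its values were 6.88, 6.72 and 6.59 on the combined arrays, 5.05, 5.08 and 4.92 on the azacytidine arrays, 5.66, 5.30 and 5.31 on the TSA arrays and 5.68, 5.81 and 5.86 on the control arrays. The combined arrays lay above all others, by at least 1.30-fold over the azacytidine arrays, at least 1.18-fold over the TSA arrays and at least 1.04-fold over the control arrays. The limma adjusted p-values of the fitted differences, not of these bounds, were 1.6e-07, 2.76e-07 and 5.72e-06 in that order. The probe passed the detection filter only through the combined arrays, so these p-values are no independent support that it was higher there. The azacytidine arrays were called lower than the control arrays (limma adjusted p = 4.75e-05), but both groups were below background and no fold is given. A second COX6B2 probe was detected on 0 arrays. Its general partner COX6B1 gave 10.21, 10.24 and 10.21 on the combined arrays against 10.46, 10.45 and 10.44 on the control arrays, which was 0.853 times the control level (log2 change -0.23, SE 0.07, limma adjusted p = 0.0114). The azacytidine arrays did not differ from the control arrays in COX6B1 (log2 change -0.01, limma adjusted p = 0.914).

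**Figure D2:**
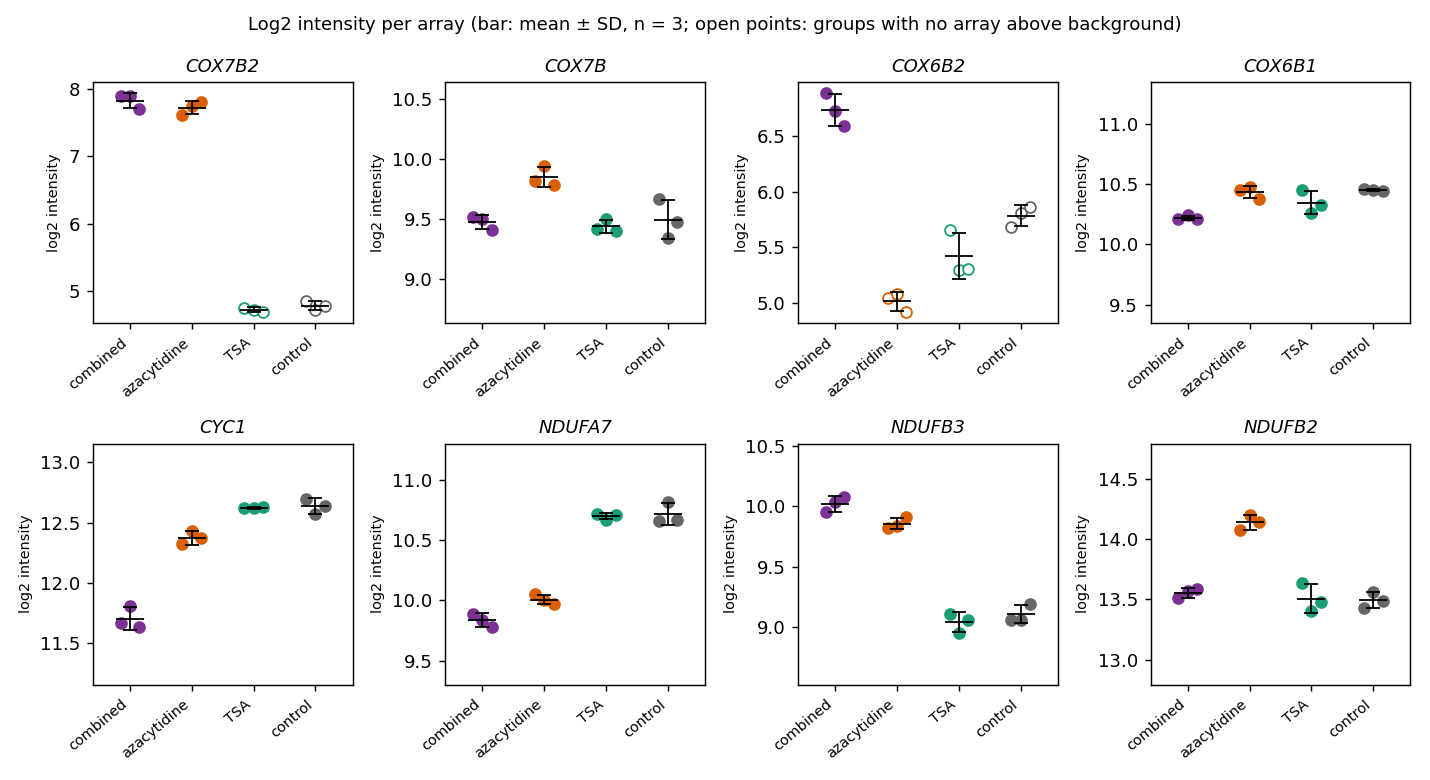
Log2 intensity per array (points) with mean ± SD (n = 3) for 8 subunit genes in the combined, azacytidine, TSA and control groups; open points mark groups in which the probe was above background on no array, and axes span different ranges. COX7B2 is high on the 6 arrays with azacytidine, COX6B2 on the 3 combined arrays, and CYC1 is lowest on the combined arrays.

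Azacytidine alone was compared with no treatment to ask what the methyltransferase inhibitor changed. Of the 67 subunit genes, 28 were higher and 8 lower in the azacytidine than in the control arrays, or 41.8% and 11.9%. Over all tested genes 32.3% were higher and 31.2% lower. The subunit genes' median log2 change was 0.13, beside 0.01 over all tested genes, and the differences were small, with a median absolute log2 change of 0.23 beside 0.38 over all genes. The balance depended on the scaling: with arrays scaled to their median over all probes, 8 subunit genes were higher and 11 lower, and the subunit median of -0.087 lay 0.052 above that of all genes, which itself moved to -0.139. With arrays scaled to the median of the kept probes, 20 were higher and 12 lower, beside 2995 and 2891 of all 9484 tested genes. The 36 called genes had the same sign on each chip alone, which is no separate support, since they were called on these same arrays. With chip as a block 29 were higher and 13 lower, beside 3263 and 3172 of all 9484 tested genes. For 17 subunit genes more than 1 probe was kept, and in no comparison were 2 probes of such a gene called with opposite signs.

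In complex I, the complex with the most genes, 13 of 28 subunits were higher and 4 lower after azacytidine alone, so 60.7% were called beside 63.5% of all tested genes. Those of its membrane arm, which pumps protons, were mostly higher: 10 of 16 rose (62.5%) and 1 fell, with a median log2 change of 0.37, beside 32.3% and 31.2% of all tested genes. Of 11 subunits of the matrix arm, which holds the flavin and the iron-sulfur clusters, 2 rose (18.2%) and 3 fell (27.3%), with a median of -0.07. This split into arms follows known structure and was made after the values were seen, so it is a description. NDUFAB1, the acyl carrier protein, which sits in both arms, rose by 0.21 (limma adjusted p = 0.0432).

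Among the membrane arm subunits, NDUFA8 gave 13.24, 13.24 and 13.21 on the azacytidine arrays, against 12.15, 12.40 and 12.40 on the control arrays. It was 1.88-fold higher (log2 change 0.91, SE 0.09, limma adjusted p = 1.05e-06), and the groups did not overlap. NDUFB3 gave 9.82, 9.84 and 9.91 on the azacytidine arrays, against 9.06, 9.06 and 9.19 on the control arrays, and was 1.68-fold higher (log2 change 0.75, SE 0.08, limma adjusted p = 2.03e-06). A second NDUFB3 probe gave a log2 change of 0.67. NDUFB7 was 1.65-fold, NDUFB6 1.56-fold, NDUFB2 1.56-fold, NDUFS5 1.53-fold and NDUFB10 1.48-fold higher, all with groups that did not overlap. In the same arm NDUFC1 was lower, at 0.859 times the control level (limma adjusted p = 0.0145).

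In the matrix arm NDUFA7, an accessory subunit, gave 10.05, 10.00 and 9.97 on the azacytidine arrays, against 10.66, 10.82 and 10.67 on the control arrays. It fell to 0.613 times the control level (log2 change -0.71, SE 0.07, limma adjusted p = 2.06e-06). NDUFA9, which lies near the ubiquinone site, fell to 0.779 times (log2 change -0.36) and NDUFS4 to 0.849 times (log2 change -0.24). Among the core subunits, the iron-sulfur protein NDUFV2 was 1.20-fold higher. The flavin-binding NDUFV1 had a log2 change of 0.02, and NDUFS3, NDUFS7 and NDUFS8 had log2 changes of -0.07, 0.19 and -0.19. None of these last 4 passed the test.

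**Figure D3:**
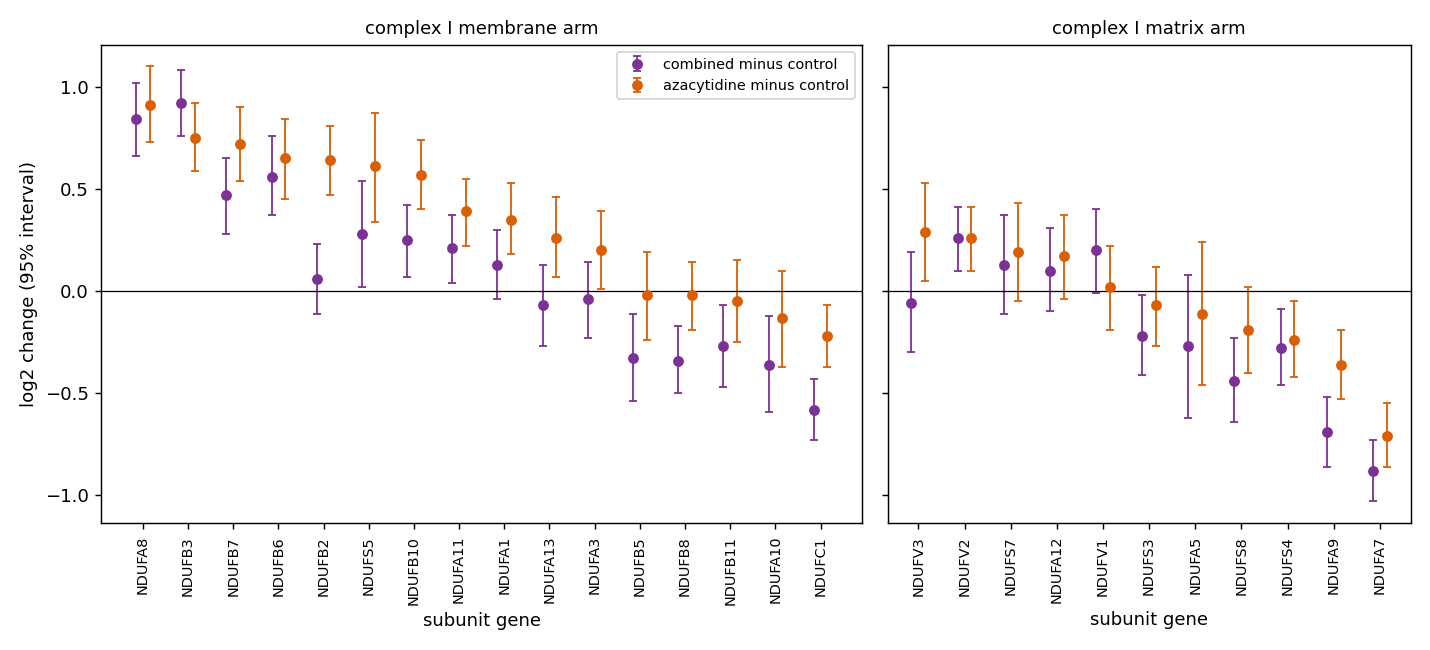
Log2 change with its 95% interval from the limma fit for complex I subunit genes of the membrane arm (left) and the matrix arm (right), combined minus control and azacytidine minus control, sorted by the azacytidine change. Changes in the membrane arm run from 0.91 (NDUFA8) to -0.22 (NDUFC1) after azacytidine, and NDUFA7 of the matrix arm is lowest, at -0.71; the 2 comparisons share the control arrays.

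In complex II, SDHC, a membrane anchor, was 1.46-fold higher (log2 change 0.55, SE 0.11, limma adjusted p = 0.000933), but its second kept probe had a log2 change of -0.38 that did not pass the test. The flavoprotein SDHA and the other anchor SDHD had log2 changes of -0.12 and -0.10 and were not called, while a second SDHA probe gave -0.29 (limma adjusted p = 0.0183 over the kept probes). In complex III, the small subunits UQCRQ and UQCR10 were 1.35-fold and 1.33-fold higher. The core protein UQCRC2 fell to 0.757 times and CYC1, the cytochrome c1 that hands electrons to cytochrome c, to 0.834 times the control level. In complex IV, COX7A2, COX7B, COX5B, COX4I1 and COX6C were 1.34-fold, 1.27-fold, 1.26-fold, 1.23-fold and 1.17-fold higher, while COX4I1 had a log2 change of -0.037 under median scaling, beside -0.139 for the median of all genes.

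In complex V, the 5 genes of the catalytic head and central stalk (ATP5F1A, ATP5F1B, ATP5F1C, ATP5F1D and ATP5F1E) included none that passed the test after azacytidine, with log2 changes between -0.15 and 0.11. Second kept probes of ATP5F1C and ATP5F1D, however, gave log2 changes of -0.30 and -0.52 (limma adjusted p = 0.00879 and 0.00221 over the kept probes). Of 10 genes of the peripheral stalk and membrane sector, 6 rose (60%) and 1 fell (10%). Over all tested genes 32.3% rose and 31.2% fell, shares that also stand beside the 5 genes of the head and central stalk. Like that of complex I into arms, this split is a description. ATP5MC1 and ATP5MC2 are separate genes for the same c subunit of the proton-driven ring, and they moved in opposite directions. ATP5MC1 gave 13.55, 13.35 and 13.47 on the azacytidine arrays, against 12.55, 12.64 and 12.64 on the control arrays, and was 1.80-fold higher (log2 change 0.85, SE 0.09, limma adjusted p = 3.08e-06). ATP5MC2 gave 11.20, 11.41 and 11.41 on the azacytidine arrays, against 11.96, 11.85 and 11.70 on the control arrays, and fell to 0.709 times (log2 change -0.50, SE 0.09, limma adjusted p = 0.000231). ATP5PF, a peripheral stalk subunit, was 1.58-fold higher, and its other 2 kept probes gave log2 changes of 0.64 and 0.51. The dimmer of 2 ATP5MG probes gave a log2 change of -0.92 after azacytidine where the probe used gave -0.13, so the size for that gene depends on the probe.

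TSA alone was compared with no treatment to ask what the deacetylase inhibitor changed. No subunit gene was called by limma in either direction, beside 0.127% of all tested genes higher and 0.0211% lower (14 genes called in all). At an unadjusted p under 0.05, 2 subunit genes of 67 passed: NDUFC1, with a log2 change of -0.17, and COX6B2, for which no change is given because both groups were below background. Of the 67 genes, 65 were above background on at least 1 TSA or control array. The 95% intervals of their log2 changes lay between -0.47 and 0.38, so all 65 excluded a 1.5-fold change in signal. COX6B2 and COX7B2 were below background in both groups and no bound can be given for them. The median log2 change was -0.04, beside -0.00 over all tested genes.

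The combined treatment was compared with no treatment to ask what both agents did together. Here 18 subunit genes were higher and 21 lower, or 26.9% and 31.3%, beside 32.8% and 36.2% of all tested genes. The median log2 change was -0.00, beside -0.04 over all genes, and the median absolute change was 0.26 beside 0.44. Under median scaling 4 were higher and 33 lower, while the median of all genes moved to -0.321. With chip as a block 21 were higher and 23 lower, beside 3314 and 3643 of all 9484 tested genes. By complex, 7 rose and 10 fell of 28 in complex I, 1 and 1 of 3 in complex II, 1 and 4 of 8 in complex III, 6 and 2 of 12 in complex IV, and 3 and 4 of 16 in complex V.

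By the probe used for each gene, the subunits that fell furthest in the combined arrays were CYC1, NDUFA7, UQCRC2 and NDUFA9. The order depends on the probe. Dimmer kept probes of ATP5MG, NDUFA10 and ATP5F1D gave log2 changes of -1.04, -0.965 and -0.634, where the probes used gave -0.27, -0.36 and -0.16. Limma adjusted p-values of the dimmer probes over the kept probes were 9.6e-07, 8.96e-06 and 0.000423 in that order. CYC1 gave 11.67, 11.81 and 11.63 on the combined arrays, against 12.70, 12.57 and 12.64 on the control arrays, and fell to 0.524 times the control level (log2 change -0.93, SE 0.07, limma adjusted p = 1.55e-07). NDUFA7 gave 9.89, 9.84 and 9.78 on the combined arrays, against 10.66, 10.82 and 10.67 on the control arrays, and fell to 0.544 times (log2 change -0.88, SE 0.07, limma adjusted p = 2e-07). Neither gene's groups overlapped. UQCRC2 fell to 0.609 times and NDUFA9 to 0.621 times, followed by ATP5MC2 at 0.66 times, NDUFC1 at 0.669 times and SDHD at 0.672 times. UQCRB, UQCRC1 and the iron-sulfur protein NDUFS8 fell to 0.698, 0.762 and 0.74 times.

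On the higher side, NDUFB3 gave 9.95, 10.04 and 10.08 on the combined arrays, against 9.06, 9.06 and 9.19 on the control arrays, a 1.89-fold difference (log2 change 0.92, SE 0.08, limma adjusted p = 2.39e-07). NDUFA8 was 1.79-fold, ATP5PF 1.60-fold, SDHC 1.51-fold, ATP5MC1 1.5-fold, NDUFB6 1.48-fold, UQCR10 1.40-fold and NDUFB7 1.38-fold higher. The second kept SDHC probe gave -0.32 and the other 2 UQCR10 probes gave -0.01 and 0.11 in this comparison, none of which passed the test. COX6C, COX4I1 and COX7A2 were 1.28-fold, 1.24-fold and 1.24-fold higher, and NDUFV2 was 1.20-fold higher. Under median scaling COX4I1, COX7A2 and NDUFV2 had negative changes of -0.097, -0.092 and -0.171, all above the median of all genes under that scaling, -0.321.

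**Figure D4:**
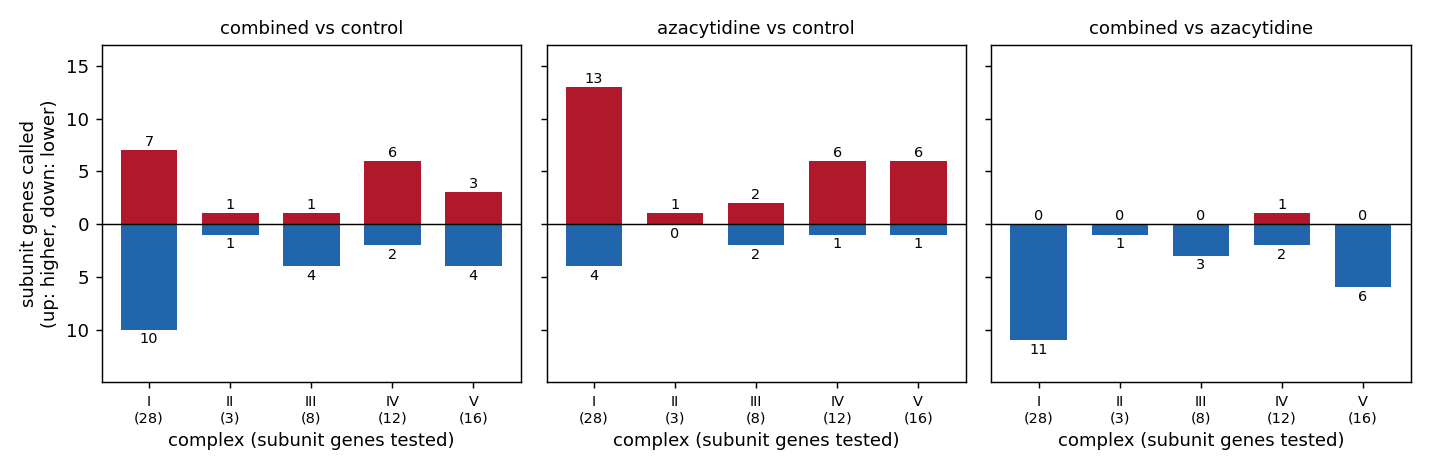
Number of subunit genes called higher (up) and lower (down) per complex in combined against control, azacytidine against control and combined against azacytidine, at a limma adjusted p under 0.05; genes tested per complex stand in brackets. Complex I has 13 higher and 4 lower after azacytidine, and 0 higher and 11 lower between the combined and the azacytidine arrays.

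Combined against azacytidine arrays compares cells with and without TSA that all received azacytidine. If TSA followed the 5 days of azacytidine, the combined cells also had 2 more days of culture. TSA and those days cannot be told apart. One subunit gene was higher, COX6B2, and 23 were lower, or 1.49% and 34.3%, beside 15.7% and 19.4% of all tested genes. Among probes not used, 1 of ATP5ME was higher (log2 change 0.45), and 1 each of NDUFA10 (-0.56) and UQCR10 (-0.52) lower. Their limma adjusted p-values over the kept probes were 0.00372, 0.00261 and 0.000159 in that order. The median log2 change was -0.16, beside -0.04 over all genes. Of the 67 genes 52 had a negative change, for which the share over all genes was not counted. Under median scaling 1 was higher and 16 lower, and the subunit median stood 0.161 below that of all genes. By complex, 11 of 28 fell in complex I, 1 of 3 in complex II, 3 of 8 in complex III, 2 of 12 in complex IV and 6 of 16 in complex V. In complex I, 9 of 16 membrane arm subunits and 2 of 11 matrix arm subunits fell. The labels do not say that same-numbered arrays of these 2 groups were pairs, and each such pair also shared a chip. With the replicate number as a block 2 genes were higher and 26 lower: ATP5PO joined the higher genes, and NDUFA10, NDUFS5 and NDUFS8 the lower ones. With chip as a block 3 were higher and 29 lower. Over all 9484 tested genes the replicate block gave 1657 higher and 2095 lower, and the chip block 1794 and 2268. Leaving out combined replicate 1, azacytidine replicate 2 or azacytidine replicate 3 left 14 called, and leaving out combined replicate 3 left 15.

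CYC1 had the largest fall between these groups, with 11.67, 11.81 and 11.63 on the combined arrays and 12.32, 12.43 and 12.37 on the azacytidine arrays (log2 change -0.67, SE 0.07, limma adjusted p = 2.01e-05). NDUFB2, a membrane arm subunit, gave 13.51, 13.57 and 13.59 on the combined arrays and 14.08, 14.20 and 14.14 on the azacytidine arrays (log2 change -0.58, SE 0.08, limma adjusted p = 0.000113). ATP5MF, the f subunit of the ATP synthase membrane sector, gave 12.81, 12.63 and 12.55 on the combined arrays and 13.31, 13.27 and 13.09 on the azacytidine arrays (log2 change -0.56, SE 0.11, limma adjusted p = 0.00168). For all 3 genes the groups did not overlap. SDHD was 0.72 times, COX7B 0.775 times and the catalytic subunit ATP5F1A 0.779 times the azacytidine level.

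Combined against TSA arrays compares cells with and without azacytidine that all received TSA, and the length of treatment differed here too. Here 22 subunit genes were higher and 17 lower, or 32.8% and 25.4%, beside 33.4% and 36.4% of all tested genes. Under median scaling 3 were higher and 40 lower, with the median of all genes at -0.431. This comparison has no array in common with azacytidine against control, although both come from the same normalization and fit. The 18 genes higher in both were 64.3% of the 28 higher in azacytidine against control and 81.8% of the 22 higher in combined against TSA. The 7 lower in both were 87.5% of the 8 and 41.2% of the 17. Over all tested genes the corresponding shares were 78% and 75.5% for higher genes, and 80.9% and 69.3% for lower genes. COX6B2 was the 1 gene with calls of opposite sign, but its azacytidine and control arrays were both below background, so no direction is read from the call between them.

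**Figure D5:**
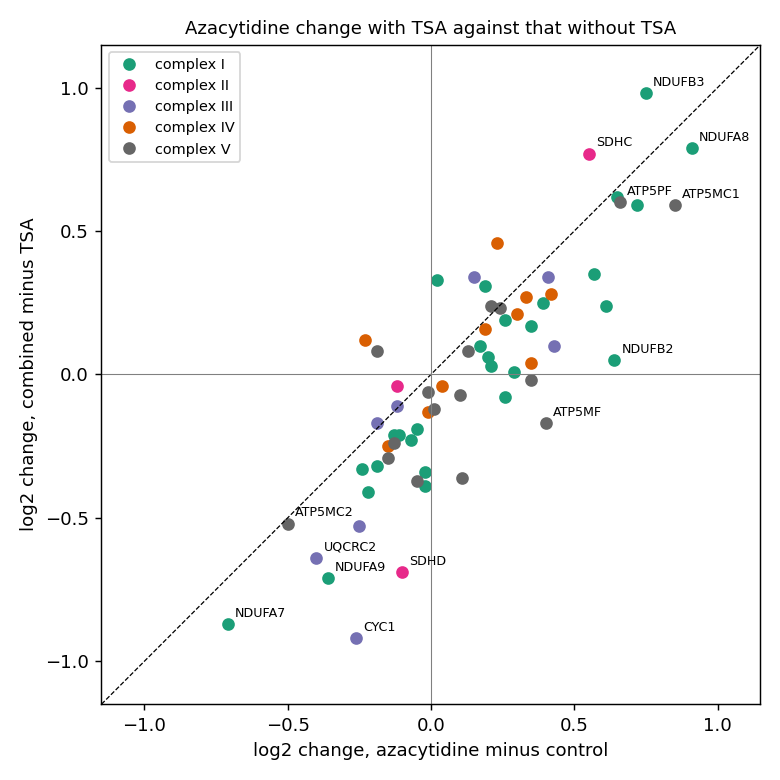
Log2 change of each subunit gene, azacytidine minus control (x axis) and combined minus TSA (y axis), coloured by complex; the dashed line marks equal changes, and COX7B2 and COX6B2 are left out. NDUFB3 and NDUFA8 lie high and NDUFA7 low on both axes, while CYC1, SDHD, NDUFB2 and ATP5MF lie below the line.

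Whether the azacytidine change itself differed with TSA was tested by the interaction of the 2 agents. Any further days of culture in the combined group enter this contrast too and cannot be told apart from TSA. Of the 67 subunit genes, 1 had a positive and 7 a negative interaction, or 1.49% and 10.4%, beside 11.6% and 11.1% of all tested genes. The positive one was COX6B2, whose probe was above background in the combined arrays only, and the negative ones were CYC1, NDUFB2, SDHD, ATP5MF, ATP5F1A, NDUFA9 and UQCRQ. These calls depend on the probe used for each gene. Among probes not used, 1 each of ATP5PB (-0.63), NDUFA10 (-0.63) and UQCR10 (-0.45) was negative and 1 of ATP5ME (0.46) positive. Their limma adjusted p-values over the kept probes were 0.00151, 0.017, 0.00779 and 0.0354 in that order. For NDUFB2, the azacytidine change was 0.05 with TSA and 0.64 without it, a difference of -0.59 (SE 0.11, limma adjusted p = 0.00231). For CYC1 it was -0.92 with TSA and -0.26 without it, a difference of -0.66 (SE 0.10, limma adjusted p = 0.000727). With chip as a block 13 were called, 1 of them positive, beside 1395 positive and 1579 negative calls over all 9484 tested genes. The number called depended on single arrays: leaving out any 1 of the 3 combined arrays left 5, and leaving out azacytidine replicate 2 or 3 left 4.

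Genes of the same pathway outside the complexes were read from lists chosen with earlier results known, and their counts stand beside the shares of all tested genes: 32.8% higher and 36.2% lower for combined, and 32.3% higher and 31.2% lower for azacytidine, each against control. Of 43 tested assembly factors, 15 were higher and 19 lower in the combined arrays (34.9% and 44.2%) and 19 higher and 12 lower in the azacytidine arrays (44.2% and 27.9%), each against control. Between the combined and the azacytidine arrays 1 was higher and 14 lower (2.33% and 32.6%), beside 15.7% and 19.4% of all tested genes. The complex IV factors COX16 and COX17, a copper chaperone, and the complex I methyltransferase NDUFAF7 rose in both treated groups. COX16 had log2 changes of 0.90 (combined) and 1.16 (azacytidine), COX17 of 1.07 and 0.78, and NDUFAF7 of 1.08 and 0.87. COX20 had log2 changes of -1.27 and -1.26, and UQCC1, which assembles complex III, of -1.75 and -1.05.

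Of 15 genes for mitochondrial DNA maintenance and transcription, 6 were higher and 5 lower in the combined arrays (40% and 33.3%), and 7 higher and 2 lower in the azacytidine arrays (46.7% and 13.3%). TFAM, which packages mitochondrial DNA and starts its transcription, had log2 changes of 0.27 (combined) and 0.70 (azacytidine). The transcription factor TFB2M had 0.95 and 1.19, MTERF1 had 1.48 and 1.49, and the matrix protease LONP1 had -1.68 and -1.45. Of 8 tested biogenesis regulators, 3 were higher and 2 lower in the combined arrays (37.5% and 25%), and 2 higher and 1 lower in the azacytidine arrays (25% and 12.5%). MYC fell by 0.82 and 0.50 on the log2 scale. The nuclear receptor ESRRA fell by 0.53 in the combined arrays and had a log2 change of -0.08, not called, in the azacytidine arrays.

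Among 17 enzymes of the TCA cycle and its entry steps, 5 were higher and 7 lower in the combined arrays (29.4% and 41.2%), and 4 higher and 4 lower in the azacytidine arrays (23.5% each). SUCLG2, a succinyl-CoA ligase subunit, fell by 1.43 and 0.72 on the log2 scale, and pyruvate carboxylase (PC) rose by 0.99 and 1.19. Of 15 electron carriers and donors outside the complexes, 4 were higher and 4 lower in the combined arrays (26.7% each), and 7 higher and 3 lower in the azacytidine arrays (46.7% and 20%). ETFDH, which feeds electrons from fatty acid oxidation to ubiquinone, rose by 1.10 and 0.99. The ubiquinone synthesis enzyme COQ5 fell by 1.00 and 1.01. Of 7 hypoxia-responsive mitochondrial genes, 2 were higher and 4 lower in the combined arrays (28.6% and 57.1%), and 3 higher and 3 lower in the azacytidine arrays (42.9% each). Of 7 ATP and ADP carriers and related pores, 1 was higher and 4 lower in the combined arrays (14.3% and 57.1%), and 2 higher and 2 lower in the azacytidine arrays (28.6% each). With 7 genes to a list, such shares rest on few genes. Among them SLC25A4, the heart and muscle form of the ADP/ATP carrier, rose by 1.24 and 0.92 on the log2 scale. In all 7 tested lists, 0 genes were called in TSA against control.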

How the data were processed

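The authors deposited a linear intensity for each probe on each array, which the values show to be unnormalized, together with detection p-values, per the file headers. Their processed log2 values, also deposited, served as an alternative, and the transform behind them is unknown here. The submitters' processing notes name GenomeStudio and lumi 2.6.0. Intensities were background-corrected (normexp from detection p-values, offset 16), quantile-normalized and taken to log2 with limma 3.58.1 in R 4.3.3. A gene was its kept probe with the highest mean. One limma fit of 4 group means gave 6 contrasts, with Benjamini-Hochberg adjustment over all 9484 genes; it was tested on simulated data. Of 48801 probes, 27577 had 1 gene, 13 several and 21211 were unnamed here. Alternatives changed background correction, normalization, filter, probe choice, chip and replicate blocks and left out each array. The subunit genes and lists were chosen with earlier results of these data known; the named genes were the most changed overall and per complex, isoform pairs and core subunits, and others named were chosen after their values were seen. Same-numbered combined and azacytidine arrays deviated together (correlations 0.418, 0.197 and 0.204) and shared chips, so a replicate block was tried there. Pairing and chip cannot be told apart in these arrays, and the labels name no pairs.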

Additional observations from a re-analysis of the deposited data

Results flagged for a closer look

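For 8 subunit genes the azacytidine change in cells that also received TSA differed from that in cells without TSA by the interaction test (limma, Benjamini-Hochberg adjusted over 9484 genes). Of the 67 tested subunit genes 1.49% had a positive and 10.4% a negative interaction, beside 11.6% and 11.1% of all tested genes. Each gene stands here by its kept probe with the highest mean. COX6B2 had a fitted difference of 2.07 (adjusted p = 1.55e-06), which is no measure of size, since its azacytidine, TSA and control arrays were all below background. Its probe passed the detection filter only through the combined arrays, so this p-value is no independent support. CYC1 had a difference of -0.66 (adjusted p = 0.000727), NDUFB2 of -0.59 (adjusted p = 0.00231) and SDHD of -0.59 (adjusted p = 0.0282). ATP5MF had -0.57 (adjusted p = 0.0196), ATP5F1A -0.47 (adjusted p = 0.0471), NDUFA9 -0.35 (adjusted p = 0.0374) and UQCRQ -0.33 (adjusted p = 0.0326). The signs were the same on each chip alone for all 8, which is no separate support, since the genes were called on these same arrays. The call of ATP5F1A was lost in 16 of 25 alternatives and that of SDHD in 11 of 25, most of them with a single array left out, while the sign stayed negative in all. Under median scaling their differences were -0.682 (adjusted p = 0.0787) and -0.862 (adjusted p = 0.0635), and the median of all genes moved to -0.281. ATP5MF was -0.492 with median scaling over the kept probes (adjusted p = 0.114). The calls of NDUFA9 and UQCRQ were not followed gene by gene. Under median scaling, and with no filter on dim probes, 3 negative calls were left: CYC1, NDUFB2 and ATP5MF. NDUFA9 and UQCRQ were thus not called in either setting. On each chip alone 0 subunit genes had a negative call.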

How the results depend on the processing

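The limits of these data are 3 arrays per group, 1 cell line and uneven chips: chip 1 held 4 of the 6 arrays without azacytidine and chip 2 held 4 of the 6 with it. Median scaling over all probes moved the subunit median to -0.388 (combined against control), -0.087 (azacytidine), 0.058 (TSA) and -0.337 (combined against azacytidine). It left 19 subunit genes called after azacytidine and 4 in the interaction, beside 4597 and 962 of all 9484 tested genes. Median scaling over the kept probes, chosen after seeing the data, gave medians of -0.093, 0.063 and -0.075 for the first 3 comparisons. It reversed no sign among the named genes. Cyclic loess left 5 interactions, beside 1905 of all 9484 tested genes, and no filter on dim probes left 4, beside 1877 of 18665. Chip as a block gave 13, beside 2974 of 9484. On chip 1 alone 22 genes were called in the combined comparison, 18 after azacytidine (median 0.076), 2 between combined and azacytidine, 20 between combined and TSA and 1 in the interaction. Over all 9484 tested genes the calls on chip 1 were 5092, 4562, 792, 5100 and 520 in that order. On all 12 arrays they were 6541, 6023, 3330, 6617 and 2150. On chip 2 alone 25 subunit genes were called in the combined comparison, 15 between combined and azacytidine and 1 in the interaction. Over all tested genes the calls on chip 2 were 5400, 2773 and 558 in that order. A chip holds 6 of the 12 arrays, and the cause of these differences was not tested. Leaving out each array gave 35 to 40 subunit genes called in the combined comparison, 30 to 36 after azacytidine, 0 after TSA, 14 to 26 between combined and azacytidine, 33 to 41 between combined and TSA and 4 to 11 in the interaction. The calls over all genes with an array left out are not given here.

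Among the settings run, signs of named genes reversed under median scaling over all probes and under no other, a setting that moved the median of all genes to -0.321 (combined against control), -0.139 (azacytidine) and -0.431 (combined against TSA). In combined against control the changes became -0.097 for COX4I1, -0.092 for COX7A2 and -0.171 for NDUFV2, and after azacytidine -0.037 for COX4I1. In combined against TSA they became -0.18 for COX4I1, -0.228 for COX7A2, -0.171 for NDUFS7, -0.164 for NDUFV1, -0.329 for NDUFV2 and -0.169 for UQCR10. Among all alternatives for the named genes, 1758 kept their call, 176 lost it and 10 reversed. With the replicate block 44 genes were called in the combined comparison, 36 after azacytidine, 0 after TSA and 11 in the interaction. Over all 9484 tested genes 6831, 6313, 12 and 2591 were called in that order. Outside combined against azacytidine, not every same-numbered pair deviated together. COX7B2 kept its call under every alternative run. COX6B2 kept its calls too, but with 3 groups below background its changes are bounds at most. Both probes passed the detection filter only through the groups in which they were high.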
